A study of Homo sapiens with 4 samples.

Results

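DCLK1 and 7 other genes that are used as markers of tumour-initiating cells of the colon (PROM1, CD44, ALCAM, ALDH1A1, BMI1, CD24 and CXCR4) were followed on the arrays, and the question was whether the level of DCLK1 in MG cells goes with that of the other markers. Their probes were found by the RefSeq accession that the array files give for each probe, and they were described probe by probe. This gave 14 of 50594 probes. Of these, 9 probes, from 7 genes, had a signal well above background (a flag that the scanner software sets per spot) on all 4 arrays, compared with 19808 of all probes. A further probe of DCLK1 was well above background on 1 array, and 4 probes, 2 of DCLK1 and both of ALDH1A1, on no array.

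The RNA came from HCT116, an established human colorectal carcinoma cell line. MG cells are the subpopulation of this line enriched by repeated migration through the membrane of a transwell chamber, and non-MG cells are those that stayed behind. Non-MG cells with vehicle, non-MG cells with 5 µM 5-azacytidine, MG cells with vehicle and MG cells with 5 µM 5-azacytidine were each hybridized to 1 array, after 48 h of treatment and with 400 ng of RNA. 5-Azacytidine is an inhibitor of DNA methyltransferases. All conditions thus share the parental line, and without replicates no condition could be tested against another.

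Tumour-initiating cells are the fraction of a tumour that can found a new one, and in the colon they have been sorted by surface proteins and by aldehyde dehydrogenase activity. DCLK1 is a microtubule-binding protein kinase of the doublecortin family, known in the intestine as a marker of tuft cells, which are chemosensory cells of the epithelium, and in mouse intestinal tumours as a marker of cells that sustain the tumour. PROM1 (CD133), CD44, ALCAM (CD166) and CD24 are surface proteins, CXCR4 is the receptor of the chemokine CXCL12, ALDH1A1 is a retinaldehyde dehydrogenase, and BMI1 is a subunit of Polycomb repressive complex 1.

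DNA methyltransferases act mainly on cytosines that are followed by guanine (CG). Since 2 of the comparisons are responses to an inhibitor of these enzymes, the sequence before each start of DCLK1 is shown with CG in capitals. RefSeq (GRCh38.p14) gave promoter entries for all 8 genes. DCLK1 had 3 starts on the minus strand, with 250 bases before them at chr13:36131940-36132189, chr13:36131383-36131632 and chr13:35855668-35855917, given 5′ to 3′ on that strand.
DCLK1 upstream start: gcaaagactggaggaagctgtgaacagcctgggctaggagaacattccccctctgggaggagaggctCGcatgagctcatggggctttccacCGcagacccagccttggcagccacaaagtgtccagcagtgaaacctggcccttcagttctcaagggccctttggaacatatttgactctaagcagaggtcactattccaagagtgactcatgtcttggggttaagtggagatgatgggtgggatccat
DCLK1 middle start: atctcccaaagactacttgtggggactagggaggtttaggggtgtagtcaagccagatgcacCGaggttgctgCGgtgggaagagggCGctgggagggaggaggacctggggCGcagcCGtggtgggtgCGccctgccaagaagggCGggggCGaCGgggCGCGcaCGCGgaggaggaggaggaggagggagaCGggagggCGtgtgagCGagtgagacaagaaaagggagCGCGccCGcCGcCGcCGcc
DCLK1 downstream start: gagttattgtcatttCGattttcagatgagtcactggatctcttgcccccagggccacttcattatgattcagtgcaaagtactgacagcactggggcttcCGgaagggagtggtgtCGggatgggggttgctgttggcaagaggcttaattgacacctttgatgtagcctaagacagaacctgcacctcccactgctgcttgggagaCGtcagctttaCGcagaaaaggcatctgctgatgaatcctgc
The window before the middle start held 22 CG, more than in 72.0% of 35116 promoter windows of the same length. The upstream and the downstream windows held 2 and 5, which exceeded 14.7% and 34.3% of them. The median of all windows was 11 (interquartile range 3 to 23). CG is its own reverse complement, so both strands give the same count. Among the 15 windows of the other markers, the count lay between 5, at a start of PROM1, and 54, at a start of BMI1. Which start the mRNA came from, and the methylation of these bases, were not measured on the arrays.

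All 4 arrays lay on 1 slide, non-MG cells in row 1 and MG cells in row 2, vehicle in column 3 and 5-azacytidine in column 4, so that position on the slide and cell type, or position and treatment, cannot be told apart. Between 21382 and 21881 probes were well above background per array, the 75th percentile of intensity lay between 75.2 and 98.7, and no spot was saturated. Of 9 genes listed for colorectal epithelium, 7 were well above background on every array (CDH1, CDX2, CLDN4, EPCAM, KRT8, KRT18 and KRT19) and CDH17 and VIL1 on none, with a summed intensity from 117471 to 141368. The lists for leucocytes, endothelium, fibroblasts and erythroid cells summed to between 5.09 and 106 per array, and CD14, VWF and COL1A1 were their only genes above background on all 4 arrays. The defining markers PTPRC, CD3E, PECAM1, CDH5 and HBB were above background on none.

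In the MG cells, the mRNA expression of DCLK1 was several-fold higher than in the non-MG cells, with either treatment, on the DCLK1 probe that measured all 4 arrays. No other marker probe measured on all 4 arrays passed 1.5-fold between the cell types in either direction. Most probes of the array did not pass it either. With vehicle 6.08% of all probes measured on all 4 arrays were higher and 8.27% lower, and with 5-azacytidine 6.21% and 7.24%. On that DCLK1 probe (A_23_P369994), the background-corrected intensity was 30.0 in non-MG cells with vehicle, 23.3 in non-MG cells with 5-azacytidine, 265 in MG cells with vehicle and 183 in MG cells with 5-azacytidine. Both arrays of the MG cells were thus above both arrays of the non-MG cells. Given as log2 intensity minus the 75th percentile of the array, the scale of all levels and differences that follow, the levels were -1.54, -1.69, 1.42 and 0.93.

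With vehicle, DCLK1 was higher in MG cells by 2.96 ± 0.21, or 7.79-fold. The error here and in the following is spot error, the SD between repeated spots of a probe at that intensity, and it covers spotting and scanning but not cultures or labellings. Of all 19808 probes measured on all 4 arrays, 2 had a larger ratio, those of LCN2 (lipocalin 2, a secreted siderophore-binding protein) and MIA (a secreted protein first found in melanoma), of which LCN2 was named after its value was seen. With 5-azacytidine, on the other pair of arrays, the ratio was 2.62 ± 0.21, or 6.14-fold, and 5 probes had a larger one. DCLK1 was chosen with its rise in MG cells known, so its ratios and ranks are a description only. After normexp background correction with an offset of 50, which raises low signals, the ratio with vehicle was 1.71 and that with 5-azacytidine 1.30, and the direction did not change.

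The other DCLK1 probes gave little, because most of their signals were not distinguishable from background. Probe A_21_P0000129, which the files assign to another transcript record of the gene, read 3.18, 2.30, 14.6 and 5.22 in the same order of arrays, and only the value of the MG cells with vehicle was well above background. For this probe, DCLK1 was at least 1.29-fold higher in MG than in non-MG cells with vehicle, the brighter signal being set against the detection limit of the dimmer array, which is the lowest signal flagged there. This bound leaves out the spot error of the brighter signal, which was 0.32 in log2. Probe A_32_P108889 read 10.2, 2.30, 6.84 and 6.89, and probe A_33_P3302777 read between 1.98 and 2.33, without a value well above background. These last probes carry the same transcript record as A_23_P369994, so the probes of 1 transcript record disagreed. The sequences and positions of the probes were not used here. The difference of DCLK1 between the cell types thus rests on 1 probe with 1 spot per array, and the bound of another adds little, being close to its spot error.

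**Figure D1:**
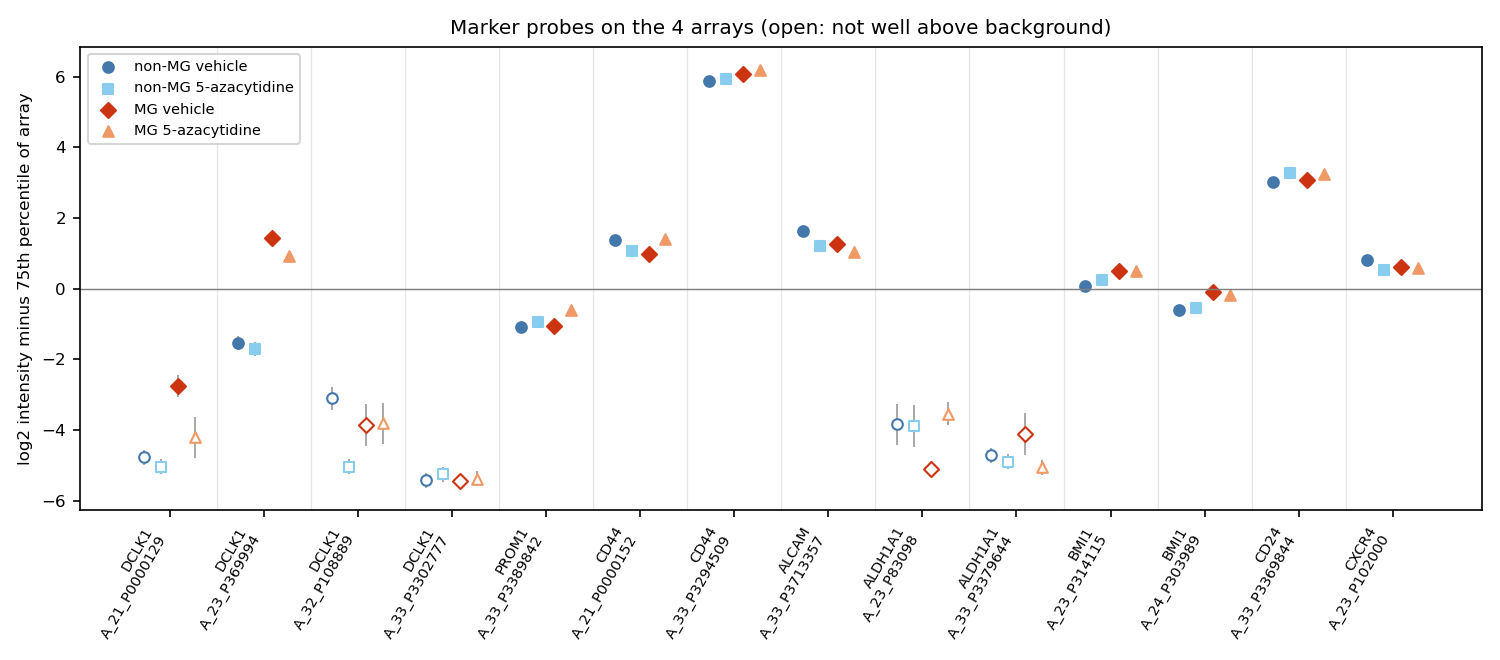
Level of each of the 14 marker probes on the 4 arrays, as log2 intensity minus the 75th percentile of the array, with spot error as bars (smaller than the symbol where not seen). Filled symbols are well above background and open symbols are not. DCLK1 A_23_P369994 separates the MG cells (1.42 and 0.93) from the non-MG cells (-1.54 and -1.69), whereas the symbols of every other probe that is filled on all 4 arrays lie within 0.58 of each other.

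Among 9 marker probes measured on all 4 arrays, 1 was higher past 1.5-fold in MG than in non-MG cells with vehicle, the DCLK1 probe, and 0 were lower. Of all 19808 such probes, 6.08% were higher and 8.27% were lower. With 5-azacytidine, again 1 of 9 was higher, the same DCLK1 probe, and 0 were lower, compared with 6.21% and 7.24% of all probes. The 8 probes other than DCLK1 came from 6 genes. Their ratios with vehicle lay between -0.37 and 0.51, with a median of 0.04 against -0.01 for all probes. Of the 8, 5 were above 0, compared with 49.3% of all probes. With 5-azacytidine their ratios lay between -0.16 and 0.36, with a median of 0.26 against 0.02. Here 6 of the 8 were above 0, compared with 52.1% of all probes. The sign of some of these ratios depended on the scaling, as given below. The 5th and 95th percentiles of all probes with vehicle were -0.72 and 0.63, and the ratios of these 8 lay between them.

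BMI1, which stimulates the histone H2A ubiquitin ligase of its complex, was higher on both of its probes in MG cells with either treatment, by less than 1.5-fold. Probe A_23_P314115 read 91.5 and 89.1 in non-MG cells with vehicle and 5-azacytidine, and 141 and 137 in MG cells. Probe A_24_P303989 read 57.5 and 51.6 in non-MG cells, and 92.8 and 84.8 in MG cells. The log2 ratios with vehicle were 0.44 ± 0.11 and 0.51 ± 0.16, and those with 5-azacytidine were 0.26 ± 0.11 and 0.36 ± 0.16. These differences exceeded the spot error.

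The surface proteins did not share a direction. PROM1, a pentaspan protein of membrane protrusions, had intensities of 41.3 and 39.0 in non-MG cells with vehicle and 5-azacytidine, and of 47.5 and 64.0 in MG cells. Its ratio was 0.02 ± 0.18 with vehicle and 0.36 ± 0.16 with 5-azacytidine, and its highest level was that of MG cells with 5-azacytidine. CD24, a glycosylphosphatidylinositol-anchored sialoglycoprotein, read 712, 729, 838 and 920. Its ratio was 0.05 ± 0.09 with vehicle and -0.02 ± 0.09 with 5-azacytidine. ALCAM, an immunoglobulin-family adhesion molecule, read 269, 174, 238 and 200, and its ratios of -0.36 ± 0.10 and -0.16 ± 0.10 were below 0 with either treatment. With median centring or normexp in place of the main scaling, the ratios with 5-azacytidine changed sign for ALCAM (0.10 and 0.02) and for CD24 (0.23 and 0.20).

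CD44, the receptor of hyaluronan, was measured by 2 probes that differed. Probe A_33_P3294509 read 5168, 4578, 6716 and 7068, and its ratios were 0.20 ± 0.07 with vehicle and 0.27 ± 0.07 with 5-azacytidine. Probe A_21_P0000152, assigned to another transcript record, read 225, 158, 197 and 258. Its ratio was -0.37 ± 0.10 with vehicle and 0.34 ± 0.10 with 5-azacytidine, so that the order of the cell types turned with the treatment. The difference between these ratios was 0.72 ± 0.14. It had no replicate check. With normexp the ratios were nearer to 0, at -0.19 with vehicle and 0.09 with 5-azacytidine.

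**Figure D2:**
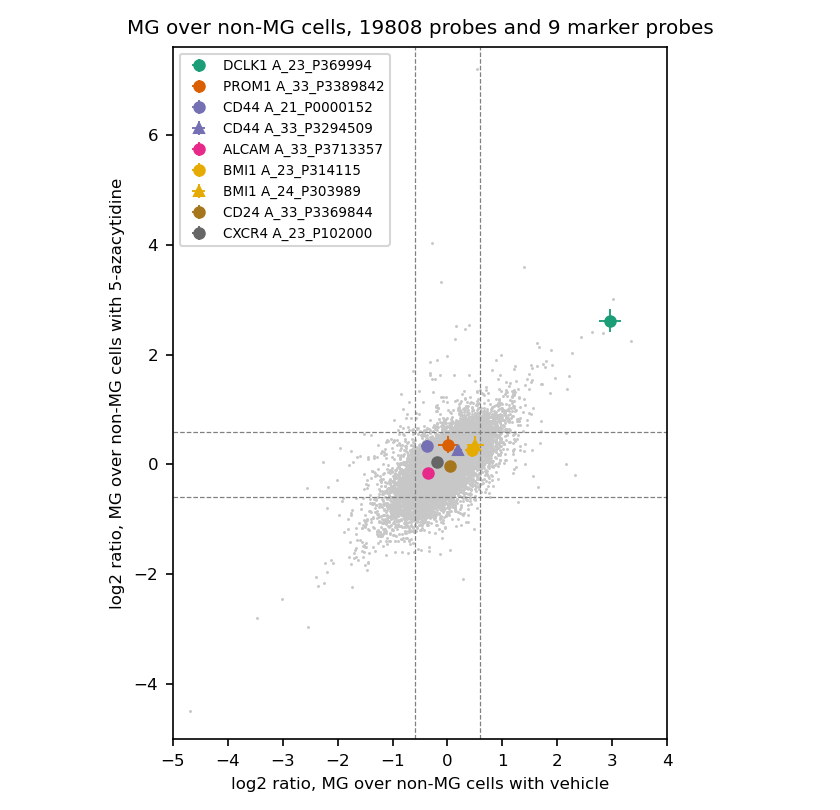
Log2 ratio of MG cells to non-MG cells with vehicle (horizontal) and with 5-azacytidine (vertical) for 19808 probes well above background on all 4 arrays (grey) and the 9 marker probes (coloured, with spot error). Broken lines mark 1.5-fold, and triangles mark the second probe of CD44 and of BMI1. DCLK1 lies at 2.96 and 2.62, and the other 8 marker probes lie between the broken lines on both axes.

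CXCR4 was the 1 marker printed at 10 spots per array, which shows the spot error directly. The mean level was 0.80 ± 0.10 (SD, n = 10 spots) in non-MG cells with vehicle and 0.62 ± 0.22 (SD, n = 10 spots) in MG cells with vehicle. It was 0.54 ± 0.06 (SD, n = 8 spots) in non-MG cells with 5-azacytidine and 0.59 ± 0.08 (SD, n = 10 spots) in MG cells with 5-azacytidine. On the array of the MG cells with vehicle, 1 spot at 0.09 lay apart from the other spots. The spots of the cell types overlapped with either treatment. The ratio of MG to non-MG cells was -0.18 ± 0.08 with vehicle and 0.05 ± 0.03 with 5-azacytidine. Its sign changed with the scaling, to 0.01 with vehicle after median centring and to -0.04 and -0.0049 with 5-azacytidine after scaling on the detected probes and quantile normalization. It also changed to -0.03 with 5-azacytidine when 2 spots flagged as outliers were kept.

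**Figure D3:**
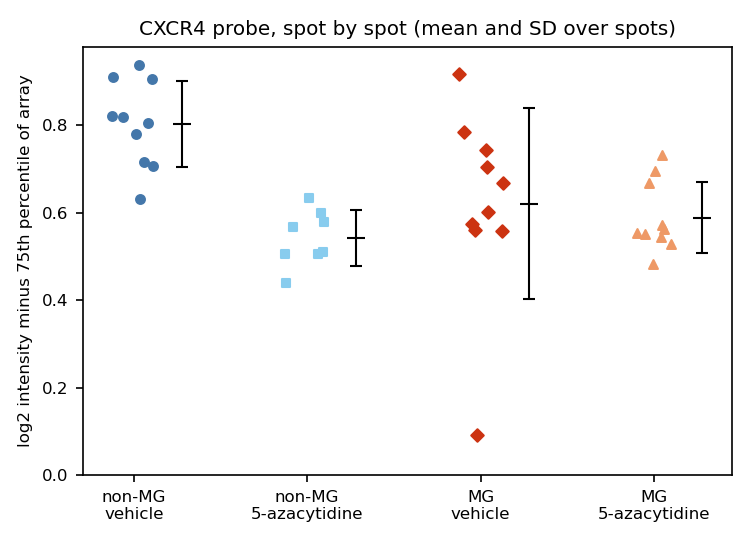
CXCR4 level at each spot of its probe on the 4 arrays, as log2 intensity minus the 75th percentile of the array. Bars give the mean and SD over the spots of 1 array. The spots of non-MG cells with vehicle lie between 0.63 and 0.94, and those of MG cells with vehicle between 0.09 and 0.92.

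ALDH1A1, the enzyme most often linked to the aldehyde dehydrogenase activity by which such cells are sorted, was not measured on any array. Its probes read between 2.90 and 8.35 and between 2.54 and 5.73, and no value was well above background, for which the lowest intensity on any array was 9.95. ALDH1A1 therefore has no ratio here, and a difference between MG and non-MG cells was not detectable.

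5-Azacytidine moved no marker probe measured on all 4 arrays past 1.5-fold. In MG cells 0 of 9 were higher and 0 were lower, compared with 3.09% and 2.20% of all probes. In non-MG cells 0 of 9 were higher and 0 were lower, compared with 1.94% and 1.89%. With shares this small, 0 of 9 does not set the markers apart from other probes. The median over the 8 probes other than DCLK1 was 0.05 in both cell types, against -0.02 and -0.04 for all probes. DCLK1 had the lowest of the 9 ratios in MG cells, -0.50 ± 0.10, or 1.41-fold lower with 5-azacytidine, and 3.68% of all probes had a smaller one. In non-MG cells its ratio was -0.15 ± 0.28, within the spot error. The change of the MG to non-MG ratio from vehicle to 5-azacytidine was -0.34 ± 0.29. Ordered by level, DCLK1 was thus highest in MG cells with vehicle, then in MG cells with 5-azacytidine, then in the non-MG cells, whose arrays did not differ beyond the spot error. For the dim DCLK1 probe A_21_P0000129, the bound was 1.21-fold lower with 5-azacytidine in MG cells. This is smaller than the spot error of its signal in MG cells with vehicle, 0.32 in log2, so no difference is claimed.

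The highest of these ratios in MG cells were those of PROM1, 0.46 ± 0.16, and of CD44 on probe A_21_P0000152, 0.42 ± 0.10. In non-MG cells the same ratios were 0.13 ± 0.18 and -0.29 ± 0.10. On the bright CD44 probe they were 0.11 ± 0.07 in MG cells and 0.04 ± 0.07 in non-MG cells. CD24 was at 0.17 ± 0.09 and 0.25 ± 0.09, and ALCAM at -0.22 ± 0.10 and -0.42 ± 0.10. These ratios kept 1 sign in both cell types. CXCR4 was at -0.03 ± 0.07 in MG cells and -0.26 ± 0.04 in non-MG cells. The BMI1 probes were at -0.01 and -0.10 in MG cells and at 0.17 and 0.05 in non-MG cells, within 1.5 times their spot error. The sign in non-MG cells changed for DCLK1 and for the bright CD44 probe with normexp (0.0038 and -0.09), and for the bright CD44 probe and BMI1 A_24_P303989 with median centring (-0.06 and -0.04).

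**Figure D4:**
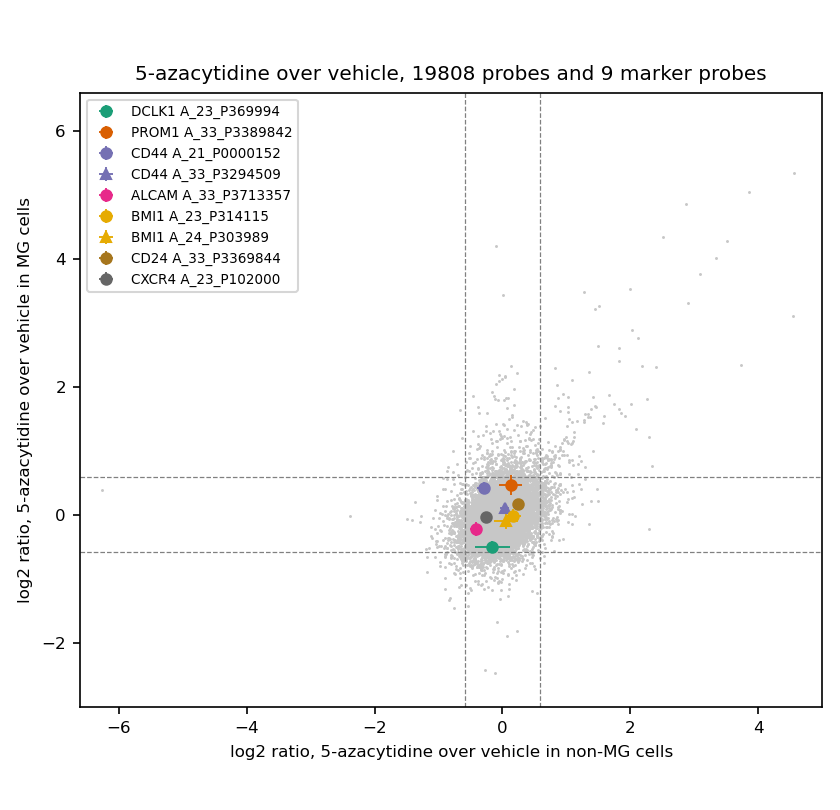
Log2 ratio of 5-azacytidine over vehicle in non-MG cells (horizontal) and in MG cells (vertical) for 19808 probes (grey) and the 9 marker probes (coloured, with spot error). Broken lines mark 1.5-fold, and triangles mark the second probe of CD44 and of BMI1. All 9 marker probes lie between the broken lines, DCLK1 lowest on the vertical axis at -0.50 and PROM1 highest at 0.46.

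The 5 named genes whose pattern over the 4 arrays lay nearest to that of DCLK1, by Euclidean distance between mean-centred log2 levels, were APOBEC3G (0.41), NRIP1 (0.48), ANXA8L1 (0.70), TM4SF1 (0.84) and MIA (0.85). None of them is among the markers. APOBEC3G, a cytidine deaminase that restricts retroviruses, had a ratio of MG to non-MG cells of 2.83 with vehicle and 2.40 with 5-azacytidine. NRIP1, a corepressor of nuclear receptors, was at 2.44 and 2.33, and at 1.52 and 1.82 on its second probe. TM4SF1, a tetraspanin-like membrane protein, was at 2.27 and 2.04. Of these 5, each was higher on both MG arrays than on both non-MG arrays, which follows from their selection by likeness to DCLK1. The likeness is over 4 arrays only.

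Genes that belong with the markers were read from lists of relatives and partners, of which the doublecortin, Polycomb and CXCR4 lists also hold DCLK1, BMI1 and CXCR4. No other listed gene measured on all 4 arrays had a ratio as large as that of DCLK1. Since DCLK1 was chosen with its rise known, this contrast is a description only. Of 28 other genes used as stem or tumour-initiating cell markers, 17 had a probe measured on all 4 arrays, 23 probes in all, with a median ratio of -0.18 in MG to non-MG cells with vehicle. Of these, 1 was higher past 1.5-fold, MSI2, which encodes an RNA-binding protein of progenitor cells, with 1.28 ± 0.24. Its brighter probe was at -0.27. DPP4 (CD26, a surface peptidase) at -0.81 and EPHB3 (an ephrin receptor of the crypt base) at -0.62 were lower. EPCAM was at 0.05. For 8 of the 28 genes no probe was well above background on any array, among them LGR5, ASCL2, OLFM4, SOX2 and NANOG, which mark or specify stem cells. Other stem cell genes of the list were measured on all 4 arrays. With vehicle POU5F1 was at -0.43 on its brighter probe, KLF4 at -0.36, LRIG1 at -0.07, MSI1 at -0.18 and TERT at -0.11. EPHB2 was at -0.31, -0.55 and -0.46 on its probes.

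Tuft cells are the normal cells for which DCLK1 is known, and most genes listed for them were not measured. Of 32 listed genes 31 had a probe, and for 19 no probe was well above background on any array, among them POU2F3, the transcription factor that specifies tuft cells. IL17RB, the receptor subunit for the cytokine IL-25, was the 1 of 9 measured probes that was higher past 1.5-fold in MG cells with vehicle, with intensities of 23.4, 24.7, 57.0 and 55.3 and levels of -1.89 in non-MG and -0.79 in MG cells with vehicle, a difference with a spot error of 0.24. With 5-azacytidine 2 of the 9 were higher past 1.5-fold and 0 lower, compared with 6.21% and 7.24% of all probes. They were IL17RB at 0.80 and PLCB2, a phospholipase of taste signalling, at 0.63 (0.46 with vehicle). ESPN, an actin-bundling protein, was lower at -0.76 with vehicle and was at -0.51 with 5-azacytidine. TRPM5, the cation channel of taste signalling, read 17.1, 15.4, 13.1 and 15.3, and its value in MG cells with vehicle was not well above background. Its ratio of MG to non-MG cells with 5-azacytidine was -0.37. GNG13 read 16.6, 16.4, 11.3 and 3.71 and was above background in non-MG cells only. It was at least 1.64-fold lower in MG cells with vehicle and at least 1.78-fold lower with 5-azacytidine. The remaining measured probes were under 1.5-fold with vehicle. ALOX5 and PTPN6 were at -0.58, PLCG2 at -0.51 and VAV1 at -0.18, and KRT18 was at 0.21 and 0.07 on its probes. The median of the 9 probes was -0.18 with vehicle and -0.04 with 5-azacytidine, and the list was not tested. Within the doublecortin family, DCLK1 was the 1 of 9 genes with a probe measured on all 4 arrays, and 5 had none above background on any array. DCLK2 was above background with vehicle in both cell types, at 19.9 in non-MG and 24.8 in MG cells, and not with 5-azacytidine. DCDC2C and DCDC2B were above background in MG cells with vehicle and on no other array, at least 3.21-fold and 2.15-fold higher than in non-MG cells, with 1 spot each.

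**Figure D5:**
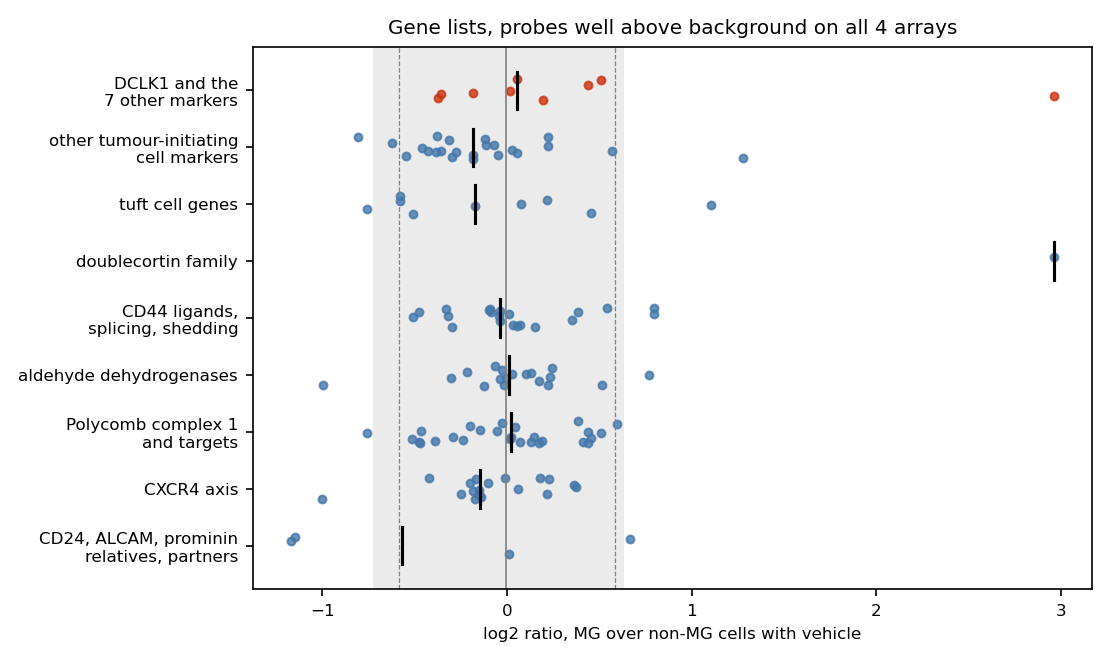
Log2 ratio between MG and non-MG cells (vehicle) for the probes of each gene list that were well above background on all 4 arrays. Short black lines are list medians, the grey band runs from the 5th to the 95th percentile of all 19808 probes (-0.72 to 0.63), and broken lines mark 1.5-fold. DCLK1, at 2.96, stands to the right of every other listed probe, and MSI2 at 1.28 is next.

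Among 20 genes of CD44 ligands, splicing and shedding, 2 of 21 measured probes were higher and 0 lower with vehicle, where 6.08% of all probes were higher and 8.27% lower. These shares stand for every list, and no list was tested against them. NF2 (merlin, which binds the tail of CD44) was at 0.80 on one probe and 0.38 on its brighter one, and HYAL3 (a hyaluronidase) was at 0.80 and 0.54. ESRP1 and ESRP2, which splice CD44 variant exons, were at -0.30 and -0.09. The median of this list was -0.04. Among 19 aldehyde dehydrogenases, 18 of them with a probe, 1 of 18 measured probes was higher and 1 lower, with a median of 0.01. ALDH1A3, a paralog of ALDH1A1, was bright on all arrays, between 7272 and 11332, with a ratio of -0.04. ALDH1L1, a folate enzyme, was at -0.99. ALDH4A1, a proline catabolism enzyme, was at 0.77 on a dim probe and at -0.02 on a bright one. ALDH3A1 was above background in MG cells with vehicle and on no other array, at least 2.25-fold higher than in non-MG cells, with 1 spot.

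Among 20 genes of Polycomb complex 1 and its targets, 1 of 27 measured probes was higher, PCGF6 at 0.59, and 1 was lower, RYBP at -0.76, beside the same 6.08% and 8.27% of all probes. PCGF6 is a paralog of BMI1 and RYBP a subunit of variant complexes. The median was 0.02. On a dim probe CBX2 was above background in MG cells with either treatment and not in non-MG cells. It was at least 1.81-fold higher in MG cells with vehicle, and its brighter probe was at 0.46. On a dim probe PHC1 was at least 1.555-fold lower in MG cells with vehicle. Its probes measured on all 4 arrays were at -0.47 and 0.19. CDKN2A, a target that BMI1 is known to repress, was at 0.15 and 0.13 on its probes. Among 18 genes of the CXCR4 axis, 0 of 18 measured probes were higher and 1 was lower, JAK3, a cytokine receptor kinase, with intensities of 616, 486, 349 and 271, and the median was -0.15. The CXCR4 ligand CXCL12 and the scavenger receptor ACKR3 were above background on no array. In the list of relatives and partners of CD24, ALCAM and prominin, 1 of 4 measured probes was higher, MCAM (CD146, an adhesion molecule) at 0.66, and 2 were lower. Both were probes of PROM2, the paralog of PROM1, at -1.17 ± 0.11 and -1.15 ± 0.16, and intensities on the first were 132, 103, 66.7 and 70.0. The remaining PROM2 probe was at least 1.59-fold lower in MG cells with vehicle. The median over these 4 probes was -0.57. With 5-azacytidine the PROM2 ratios were -0.92 and -0.82, while that of PROM1 was 0.36.

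In response to 5-azacytidine, LIN28B, a regulator of the microRNA let-7 and 1 of the other tumour-initiating cell markers, was above background with 5-azacytidine and not with vehicle in both cell types. Its intensities were 5.76, 43.8, 2.59 and 70.5 in the order used above. LIN28B was at least 5.06-fold higher in non-MG cells and at least 6.29-fold higher in MG cells, on 1 probe with 1 spot. MSI2, on the dim probe, was at 1.08 in non-MG cells and 0.59 in MG cells, and on the brighter probe at -0.22 and -0.14. RNF2, the E3 ligase that pairs with BMI1, was at -1.68 in MG cells on 1 probe and at 0.01 on its other probe.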

How the data were processed

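HCT116 subpopulations were measured on 4 one-colour arrays, 1 per condition as given by the labels. The authors deposited the scanner output of Agilent Feature Extraction, with a background-corrected linear intensity and flags per spot that were not normalized between arrays, and a table of log2 values centred per probe. Differences between arrays in that table equalled those of the log2 intensity minus a constant within 0.01 for all 24161 probes compared. Its direction and scale are thus known, and the centring is on each probe over the arrays. The deposited flags of outliers, saturation and signal well above background were used as given. The labels name RNAiso Plus for RNA extraction and the methods name an RNeasy kit.

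From the intensity, log2 minus the 75th percentile of each array over non-control probes was computed. Leaving out control and outlier spots took away 5 of 50599 probes. Several spots of 1 probe were averaged. Probes were named by the accession in the files through RefSeq (GRCh38.p14), which named 30000 probes with 21611 symbols. The array design gives another build, so no gene coordinates are given besides the promoter windows, which are on GRCh38.p14.

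Only probes flagged well above background on every array were counted past 1.5-fold. With 1 array per condition no test was made. As spot error the SD over the spots of probes with 5 or more of them was taken by intensity, from 0.58 at log2 intensities of 2 to 3 to 0.05 above 10, divided for a repeated probe by the root of its number of spots using its own SD. The number of arrays limits the precision. A probe above background on 1 side is given as a bound, at least N-fold. It is taken from the brighter level and the lowest signal flagged as above background on the dimmer array. Where the probe's own signal there was higher, as for TRPM5, intensities are given instead. The bounds leave out the spot error. Unflagged signals could exceed that lowest flagged signal. In non-MG cells with vehicle a DCDC1 probe read 13.4 without a flag, where the lowest flagged signal was 10.0. The bounds are thus nominal. The counting was tested on simulated arrays.

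The 8 genes and all lists were chosen with earlier results of these data known. The genes named are all 8 markers, the listed genes past 1.5-fold between the cell types with vehicle, the 5 genes nearest to DCLK1, and listed genes on which a statement turns; LCN2 was named after its value was seen. Alternatives were normexp with an offset of 50 on the median spot signal, median centring, the 75th percentile of detected probes, quantile normalization, the log2 values of the authors, signals raised to the detection limit, other filters, thresholds of 2-fold and 1.4-fold, and means per gene. Keeping flagged spots was added after the data were seen. The software was Python 3.11.15 (pandas 2.3.3, numpy 2.4.6, matplotlib 3.10.9) and limma 3.58.1 in R 4.3.3.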

Additional observations from a re-analysis of the deposited data

Results flagged for a closer look

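On probe A_21_P0000152, the log2 ratio of 5-azacytidine over vehicle for CD44 was 0.42 in MG cells and -0.29 in non-MG cells, opposite in direction. With normexp the ratios were 0.22 and -0.06. The difference was not tested, since each condition has 1 array. On the brighter CD44 probe the ratios were 0.11 and 0.04.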

How the results depend on the processing

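The DCLK1 ratio between the cell types with vehicle was 2.96 and lay between 2.94 and 3.16 under all alternatives but normexp, which gave 1.71. The count of marker probes past 1.5-fold was 1, 1, 0 and 0 in the 4 comparisons (MG to non-MG cells with vehicle and with 5-azacytidine, then 5-azacytidine over vehicle in MG and in non-MG cells). It was 5, 3, 3 and 1 without the filter on dim probes, which adds probes that no array or 1 array measured. A threshold of 1.4-fold gave 2 between the cell types (vehicle) and, in MG cells, 1 for 5-azacytidine. Median centring gave 3 with vehicle and 4 with 5-azacytidine between the cell types, but moved the median of all probes by 0.20 and 0.26, and relative to that shift the added probes were under 1.5-fold. The other alternatives that were run left these counts as they were. Of 245 ratios of single marker probes, 199 moved by less than the spot error and 46 by more, 21 of the latter with median centring and 17 with normexp. The DCLK1 ratio between the cell types with vehicle was not counted in the 245, and with normexp it moved by more than its spot error. With the main scaling, the only ratio past 1.5-fold in the 245 was that of DCLK1 between the cell types with 5-azacytidine, and it kept its sign. Several smaller ratios changed sign, as given above. The cause was not tested. Matching probes by gene name was not run, since the files used here hold no such column, and a slide block was not run, since there is 1 slide. No paired analysis was possible because each condition has 1 array, so that no replicate numbers pair the arrays. An additive fit of cell type and treatment over the 4 arrays was not run. Signals below about 10 are not distinguishable from background, which leaves ALDH1A1 and most DCLK1 and tuft cell probes without a ratio.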
